A study of Mus musculus with 15 samples.

Results

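Tumors of the parental melanoma line that had received triple therapy were compared with parental tumors that had received isotype antibody, across all genes measured by bulk RNA sequencing. The comparison uses 6 of the 15 libraries of the study, 3 parental triple therapy libraries and 3 parental isotype libraries, chosen by their labels. Of 23420 gene symbols in the table, 13592 reached 1 TPM (transcript abundance scaled for length and to a fixed total) in at least 3 libraries and were tested. The tumors were syngeneic grafts, grown from 1000000 D4M.3A.3 cells inoculated per flank in 8-week-old female C57BL/6 mice, and only left-flank tumors were treated. Triple therapy combined ablative fractional photothermolysis (a laser that removes columns of skin, on days 8 and 12) with imiquimod and an antibody (both on days 8, 10 and 12). Its antibody is uncertain, because the sample characteristics name anti-PD-1 and the treatment protocol names the isotype antibody. A parental anti-PD-1 group of 3 libraries, given the PD-1-blocking antibody on days 8, 10 and 12, is shown beside these groups. The labels name a lotion as the alternative to imiquimod. All tumors were taken on day 13, 1 day after the last dose. Whether each library is a separate animal is not stated in the labels, so p-values measure only the spread between these samples.

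Imiquimod activates Toll-like receptor 7, a sensor of single-stranded RNA in the endosomes of plasmacytoid dendritic cells, macrophages and other myeloid cells, and mouse skin treated with it becomes thickened and inflamed. Fractional lasers leave columns of destroyed skin that heal from the surrounding epidermis. Basal keratinocytes make keratins 5 and 14, and suprabasal cells switch to keratins 1 and 10 before they build the cornified envelope. Wounded or inflamed epidermis makes keratins 6, 16 and 17 in its outer layers. Injured skin also releases chemokines of the Cxcl1 family, which draw neutrophils through the receptor Cxcr2, and macrophages that sense bacterial or nucleic acid patterns make itaconate, nitric oxide and tumor necrosis factor.

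The number of reads behind a library is not given by TPM values, so depth is unknown and precision rests on the spread between libraries. Each SE uses 1 spread per gene, shared by all 5 groups of 3 libraries. Between 12423 and 13993 genes reached 1 TPM in the 6 libraries. Triple therapy replicate 1 stood apart from the others. Its correlation with the isotype libraries across tested genes (log2(TPM + 1)) was 0.826 to 0.855, against 0.964 to 0.984 for triple therapy replicate 2 and 0.949 to 0.958 for replicate 3, while isotype libraries correlated with each other at 0.942 to 0.990. Its most abundant transcript was Krt14, against Spp1 in the other 5. Isotype replicate 3 carried more skeletal muscle and adipocyte RNA than the other isotype libraries. The melanocyte genes Sox10, Tyrp1, Dct, Pmel and Mlana were at most 0.61 TPM in every isotype library, so these defining markers of the labelled melanoma were near absent. Tyr, another melanocyte gene, reached the level to be tested and is not covered by this statement. Mitf, the lineage transcription factor, measured 9.72, 11.8 and 5.72 TPM in the isotype libraries. Levels below are listed in the order of replicates 1, 2 and 3. A value with ± in parentheses after them is the log2 fold change of triple therapy minus isotype on the log2(TPM + 1) scale with its SE, which understates changes of low genes, and the adjusted p beside it is from limma over all genes.

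Sequences of the genes that carried the results are shown first. The 3 genes that passed the test were keratins, and the pair on chromosome 15, Krt6a and Krt6b, are near copies whose coding sequences of 1662 and 1665 bases were 97.6% identical. Of the 30-base windows of Krt6a, 68.4% also occurred in Krt6b, and the longest identical run was 280 bases, so short reads from much of either gene could be assigned to both. Where they differ most, from base 751 to base 870 of the coding sequence (GENCODE M21, GRCm38), 17 bases separate them, shown in capitals.
Krt6a: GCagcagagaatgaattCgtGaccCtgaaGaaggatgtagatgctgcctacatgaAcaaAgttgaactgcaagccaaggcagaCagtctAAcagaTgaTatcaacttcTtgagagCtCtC
Krt6b: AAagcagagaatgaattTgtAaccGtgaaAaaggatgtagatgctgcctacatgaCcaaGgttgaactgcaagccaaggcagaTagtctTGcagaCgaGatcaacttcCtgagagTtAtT

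The neighbouring chemokine genes Cxcl1, Cxcl2 and Cxcl3 each held matches of GGGNNNTTCC, a motif of the NF-kB type (Rel factors that drive inflammatory genes), within 97 bases of the start site. The 150 bases before each start site are printed 5′ to 3′ from the RefSeq promoter table (GRCm38.p6), with matches on either strand in capitals and overlapping matches merged.
Cxcl1, chr5:90891095-90891244, plus strand: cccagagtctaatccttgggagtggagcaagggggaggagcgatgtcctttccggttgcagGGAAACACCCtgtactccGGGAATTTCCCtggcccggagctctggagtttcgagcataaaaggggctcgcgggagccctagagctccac
Cxcl2, chr5:90903749-90903898, plus strand: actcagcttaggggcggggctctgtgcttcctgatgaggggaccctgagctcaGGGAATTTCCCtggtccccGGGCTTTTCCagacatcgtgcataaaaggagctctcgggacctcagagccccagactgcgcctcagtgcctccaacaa
Cxcl3, chr5:90785951-90786100, plus strand: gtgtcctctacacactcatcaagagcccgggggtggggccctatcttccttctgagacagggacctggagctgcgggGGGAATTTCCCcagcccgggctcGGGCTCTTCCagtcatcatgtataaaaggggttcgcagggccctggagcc
Within 250 bases before to 50 after the start, the motif occurred for 6.31% of all 27025 genes of the table, for 3 of the 5 tested neutrophil attractant genes with an entry, for 6 of 20 genes of inflammatory cytokines and feedback and for 4 of 17 interferon gamma response genes. It also occurred for 2 of 5 basal keratinocyte genes (Krt14 and Col17a1), 1 of 8 suprabasal genes and 1 of 25 cornified envelope genes.

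Sprr1b, a cornified envelope precursor, carried 1 match of TGANTCA, the letters of an AP-1 type motif, 111 bases before its start.
Sprr1b, chr3:92438780-92438929, minus strand: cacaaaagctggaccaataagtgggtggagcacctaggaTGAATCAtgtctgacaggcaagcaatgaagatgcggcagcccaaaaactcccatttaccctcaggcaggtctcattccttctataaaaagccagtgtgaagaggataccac
The AP-1 letters were found for 8.97% of all genes and for 5 of 25 cornified envelope genes with an entry, namely Lor, Ivl, Sprr1a, Sprr1b and Sprr2d, as well as 7 of 20 genes of inflammatory cytokines and feedback and 0 of 5 basal keratinocyte genes. A match describes letters in a window and does not show that a factor bound there.

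Epidermal keratins of the wounded state rose in triple therapy tumors. Krt6a, a keratin of wounded epidermis, measured 6054, 41.0 and 419.6 TPM in triple therapy tumors, against 0.1, 0.57 and 0.19 TPM in isotype tumors. Its near copy Krt6b measured 6389, 29.7 and 398 TPM in triple therapy tumors and was listed at 0 in all 3 isotype tumors. Krt16, the type I partner of keratin 6, measured 5730.0, 33.7 and 389 TPM in triple therapy tumors, against 0.29, 0.17 and 0.14 TPM in isotype tumors. In each of these genes the triple therapy libraries differed by orders of magnitude, with replicate 1 highest and replicate 2 lowest, and even replicate 2 lay above every isotype library. The log2 fold changes on the log2(TPM + 1) scale were 8.55 ± 1.23 for Krt6a (chromosome 15, 101689910 to 101694307) and 8.48 ± 1.21 for Krt16 (chromosome 11, 100246091 to 100248902), ± SE. For Krt6b (chromosome 15, 101676023 to 101680287) no fold is given, since isotype tumors were listed at 0. Each had an adjusted p of 0.0462 (limma, Benjamini-Hochberg over all genes). These 3 were the genes past an adjusted p of 0.05, 0.0221% of those tested, all higher, and 0 were lower. All 3 reached the filter on low values only through the triple therapy libraries, and with no filter 0 genes passed (adjusted p = 0.0707 for each of the 3, limma). The fit assumed 1 spread per gene in all 5 groups. These 3 genes ranged over 7.17 to 7.7 log2 among triple therapy libraries and 0 to 0.51 among isotype libraries. With the compared groups alone 0 genes passed. The calls ended without triple therapy replicate 3 or any single isotype library (0 calls each), and 257 genes passed without triple therapy replicate 2. Without the outlying triple therapy replicate 1, 5 genes passed, the same 3 keratins with Gsta4 and Sprr1b, and the log2 fold change of Krt6a was 6.71 ± 0.79.

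**Figure D1:**
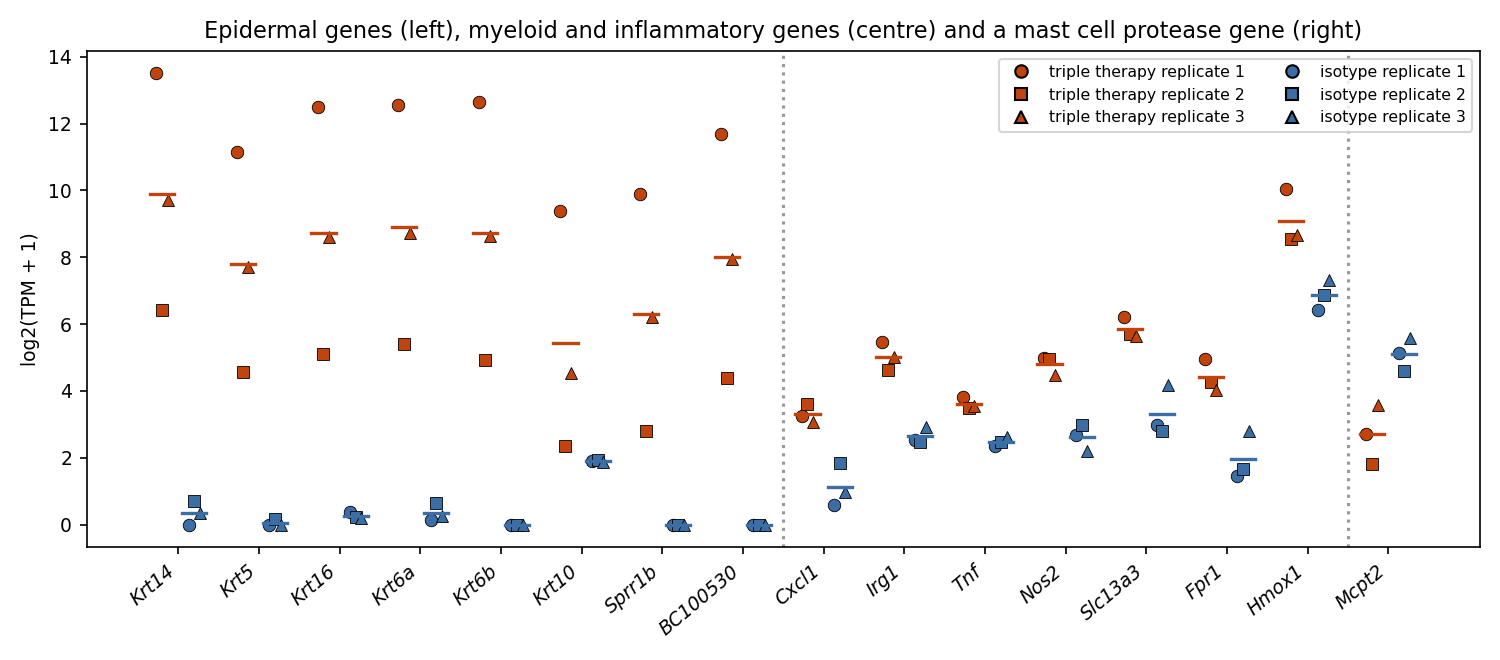
Level of 16 genes as log2(TPM + 1) in each of 3 triple therapy (orange) and 3 isotype (blue) libraries, with the group mean as a bar and the replicate as the marker shape. The epidermal genes on the left spread over several log2 units among triple therapy libraries, with replicate 1 highest and replicate 2 lowest. The inflammatory genes in the centre were chosen by small p, which selects for tight and separate groups. They ranged over 0.32 to 1.5 log2 among triple therapy libraries, all above the 3 isotype libraries. Inflammatory genes not shown ranged more widely, such as Cxcl2 (4.74) and S100a8 (5.09).

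Across all genes, 1474 had an unadjusted p under 0.05 and a higher mean in triple therapy tumors (10.8%), and 240 had a lower one (1.77%). This balance depended on scaling, since after median-of-ratios scaling the split was 1122 to 681, and after quantile normalization it was 859 to 1007 (higher to lower). The median log2 fold change of all genes was 0.12, with 64.1% of genes positive, and these scalings moved it to -0.01 (median of ratios) and -0.09 (quantile). Groups did not overlap for 1727 genes higher in triple therapy (12.7%) and 461 lower (3.39%). Counts of list members below are read against these shares.

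**Figure D2:**
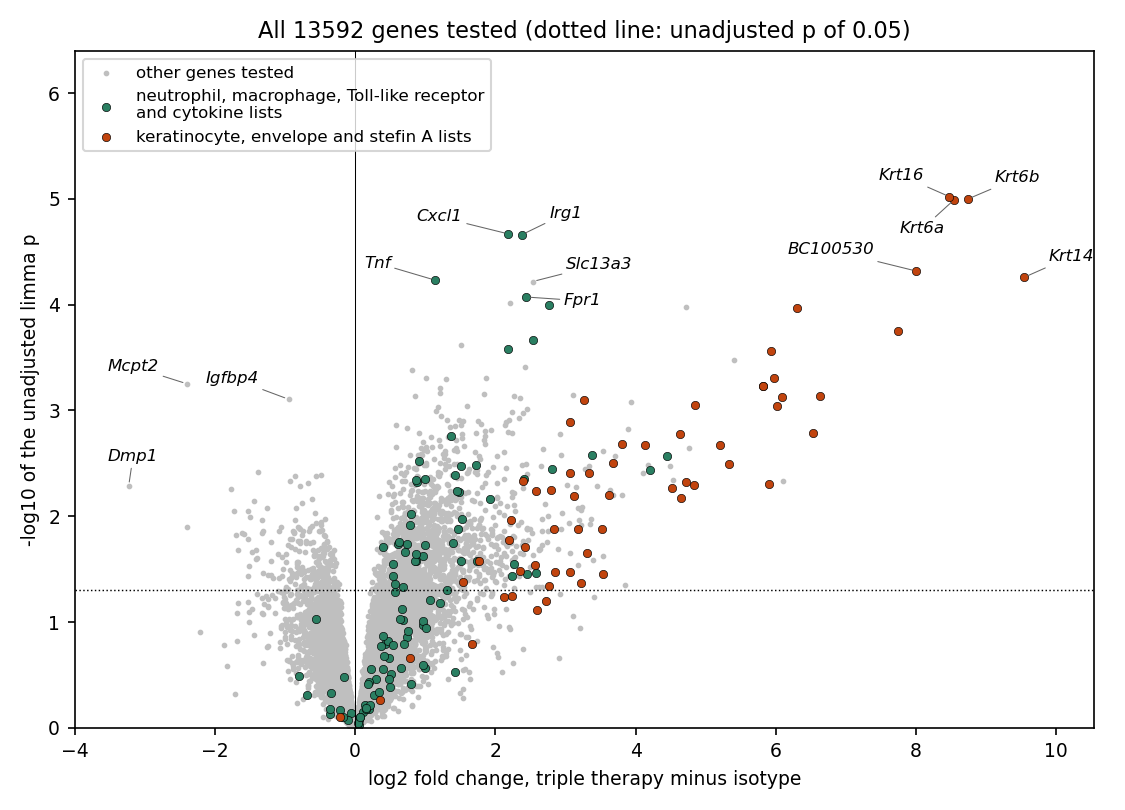
Log2 fold change of triple therapy minus isotype (horizontal) against -log10 of the unadjusted limma p (vertical) for all 13592 genes tested, with keratinocyte, envelope and stefin A genes in orange and myeloid and cytokine genes in green. The highest points are Krt16, Krt6b and Krt6a at log2 fold changes above 8, followed by Cxcl1 and Irg1 at 2.19 and 2.38, and few genes lie far to the left.

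Other keratins followed the same order of libraries without passing the test. Krt14, the type I keratin of basal keratinocytes, measured 11620.4, 85.7 and 845 TPM in triple therapy tumors, against 0, 0.63 and 0.27 TPM in isotype tumors (9.54 ± 1.62, adjusted p = 0.0913). Krt5, its type II partner, measured 2258, 22.6 and 207 TPM with triple therapy and 0, 0.12 and 0 TPM with isotype (7.75 ± 1.49, adjusted p = 0.161). Krt17, a keratin of hair follicles and wounds, measured 1409, 5.46 and 105 TPM with triple therapy and was listed at 0 in all isotype libraries (adjusted p = 0.27). Replicate 1 held the most and replicate 2 the least of all 3, and no triple therapy library overlapped the isotype group. Krt14 was the most abundant of all tested genes in triple therapy replicate 1, ranked 1923 in replicate 2 and 179 in replicate 3.

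Genes of differentiating layers had the same order of libraries. Krt1, an early suprabasal keratin, measured 1402, 1.99 and 61.0 TPM in triple therapy tumors, against 0, 0.21 and 0 TPM in isotype tumors (5.90 ± 1.75, adjusted p = 0.32). Krt10, its partner, measured 672, 4.12 and 22.4 TPM with triple therapy and 2.71, 2.85 and 2.63 TPM with isotype (3.53 ± 1.50, adjusted p = 0.366). Krtdap, a secreted protein of differentiating keratinocytes, measured 1104, 7.53 and 83.4 TPM with triple therapy and was listed at 0 with isotype. In replicate 2 the levels of Krt1 and Krt10 were within a few TPM of the isotype libraries, although the groups did not overlap. The desmosomal gene Perp measured 1007, 6.89 and 81.5 TPM with triple therapy, against 0.24, 0.14 and 0.46 TPM with isotype (6.09 ± 1.39, adjusted p = 0.27), again with replicate 2 lowest.

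Proportions among keratins were compared within libraries. The ratio of Krt6a to Krt14 was 0.521, 0.479 and 0.497 in triple therapy replicates 1, 2 and 3, and that of Krt16 to Krt14 was 0.493, 0.393 and 0.460. The ratio of Krt5 to Krt14 was 0.194, 0.263 and 0.246. For Krt10 to Krt14 it was 0.0578, 0.0481 and 0.0265, highest in replicate 1 and lowest in replicate 3. For Krt17 to Krt14 it was 0.121, 0.0637 and 0.124, so that this keratin was lowest relative to Krt14 in replicate 2. The summed TPM of 52 keratin genes was 35830.4, 244.3 and 2493.9 in the same order. No such ratio is given for isotype tumors, whose Krt14 reached at most 0.63 TPM.

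Cornified envelope precursors, which keratinocytes crosslink into the outer shell of the skin, were measured from a list of 41 genes in the table. Sprr1b measured 947, 5.99 and 73.4 TPM in triple therapy tumors and was listed at 0 in all isotype tumors (adjusted p = 0.104). Sprr1a, its neighbour, measured 1010.2, 4.99 and 91.5 TPM with triple therapy and 0.31, 0.35 and 0.29 TPM with isotype (5.97 ± 1.29, adjusted p = 0.266). Both had all 3 triple therapy libraries above the isotype libraries, and both were lowest in replicate 2. Sprr2a1 and Sprr2a2 share an identical coding sequence of 252 bases and carry the same values, 599, 1.81 and 106 TPM with triple therapy and 0 in isotype libraries, so they cannot be told apart here. Lor, the gene of loricrin, which marks fully differentiated epidermis, measured 70.2, 0 and 3.67 TPM with triple therapy and 0, 0.15 and 0 TPM with isotype, and here the groups overlapped because replicate 2 was listed at 0 (adjusted p = 0.426). Calm4, a calcium-binding protein of epidermis, measured 1056, 2.66 and 82.7 TPM with triple therapy and 0 in isotype libraries. Of the 26 envelope genes tested, 19 lie on chromosome 3 between 92080271 and 93333570.

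Stefin A genes encode intracellular cysteine protease inhibitors and lie together on chromosome 16. BC100530, a stefin A gene, measured 3284, 19.9 and 246 TPM in triple therapy tumors and was listed at 0 in all isotype tumors (adjusted p = 0.0913). Stfa1 measured 745, 3.85 and 61.7 TPM and Stfa3 813, 2.61 and 90.8 TPM with triple therapy, and both were listed at 0 with isotype. Stfa2l1 measured 48.6, 2.6 and 7.14 TPM with triple therapy and 0, 0 and 0.61 TPM with isotype (3.27 ± 0.75, adjusted p = 0.27). Replicate 1 was highest and replicate 2 lowest in all 4. Family members resemble each other, with 37.4% of the 30-base windows of Stfa1 found also in BC100530, so the split of reads between them is uncertain. Gsta4, a glutathione transferase that detoxifies lipid aldehydes, measured 271, 7.85 and 27.3 TPM with triple therapy, against 0.5, 0.28 and 0.95 TPM with isotype (4.72 ± 0.86, adjusted p = 0.104).

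Many epidermal genes entered the test only because triple therapy libraries held them. Without those 3 libraries, 322 of the 13592 genes would not have reached the level filter, among them all 4 wound keratins, 7 of 11 basal keratinocyte genes, 6 of 14 suprabasal genes, 22 of 26 cornified envelope genes and all 5 tested stefin A genes. Such genes were selected by the group in which they are high, so no count of higher genes and no median is given for these lists. Among the 6 lists of neutrophil, neutrophil attractant, macrophage, Toll-like receptor, interferon gamma response and type I interferon response genes, 0 members entered in this way.

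**Figure D3:**
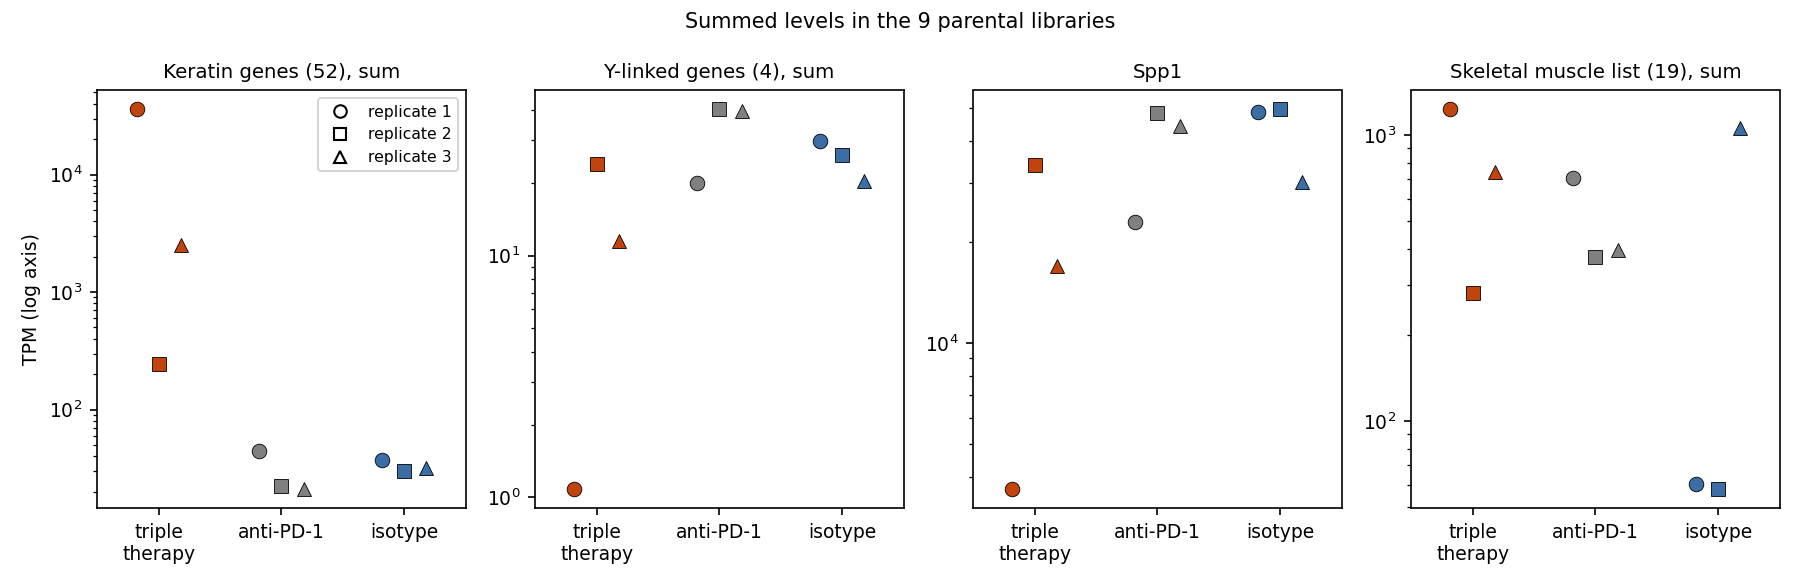
Summed TPM (log axis) of 52 keratin genes, 4 Y-linked genes and 20 skeletal muscle genes (19 of them tested, the number in the panel title), and the TPM of Spp1, in the 3 triple therapy, 3 anti-PD-1 and 3 isotype parental libraries, with the replicate as the marker shape. Triple therapy replicate 1 holds the most keratin (35830.4 TPM) and the least Y-linked RNA (1.08 TPM), and muscle RNA is high in isotype replicate 3 (1054.9 TPM) and low in isotype replicates 1 and 2.

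Transcripts abundant in the isotype grafts ran against the keratins across libraries. The hosts were female and Y-linked transcripts were present, so a Y-linked sum (Eif2s3y, Ddx3y, Kdm5d and Uty) is shown as an index of grafted cells. The index does not hold for every graft, since the sum was at most 0.02 TPM in every library of the study's UV2 line. Whether all parental cells kept these transcripts was not tested. The Y-linked sum was 1.08, 23.86 and 11.47 TPM in triple therapy tumors, against 29.76, 26.05 and 20.37 TPM in isotype tumors. Spp1, which encodes osteopontin and was the most abundant transcript of every isotype library, measured 3675, 33894 and 16922 TPM with triple therapy, against 48807, 49587 and 30084 TPM with isotype (-1.70 ± 0.61, adjusted p = 0.339). Both were lowest in replicate 1, the library richest in keratin, and in both replicate 2 lay within the isotype range. In bulk tumor RNA, fewer cells of a type and less RNA per cell cannot be told apart, and the part of tissue composition in any result below was not tested.

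Genes of neutrophil attraction were higher in triple therapy tumors, although 0 passed the test. Cxcl1, a chemokine that draws neutrophils (chromosome 5, 90891241 to 90893115), measured 8.54, 11.3 and 7.45 TPM in triple therapy tumors, against 0.5, 2.56 and 0.96 TPM in isotype tumors. Its 3 triple therapy libraries lay close together and above every isotype library, with the keratin-poor replicate 2 highest. The log2 fold change was 2.19 ± 0.34 (adjusted p = 0.0592). Cxcl2, which binds the same receptor, measured 90.6, 2.44 and 5.62 TPM with triple therapy and 0, 0 and 0.84 TPM with isotype (3.38 ± 0.91, adjusted p = 0.313). Cxcl3 measured 54.5, 4.29 and 2.83 TPM with triple therapy and 0.23, 0.27 and 1.12 TPM with isotype (2.80 ± 0.79, adjusted p = 0.316). Cxcl5, made by epithelial cells among others, measured 92.8, 18.2 and 50.7 TPM with triple therapy and 4.84, 3.01 and 17.3 TPM with isotype (2.59 ± 1.10, adjusted p = 0.366). In these 3 replicate 1 was highest, and none overlapped with the isotype group. Only 6 of the 13 attractant genes in the table reached the filter and were tested. Of these 6, 4 had an unadjusted p under 0.05 and were higher, 0 were lower, and the list's median log2 fold change was 2.39 beside 0.12 over all genes. That median was 0.85 with no filter and 0.82 with the basal keratinocyte level of each library as a covariate. The 5 genes of this list on chromosome 5 lie between 90759360 and 90905938, and Csf3, the neutrophil growth factor, was below the filter at 3.29, 0.7 and 0.47 TPM with triple therapy and 0, 0 and 0.33 TPM with isotype.

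Neutrophil genes were measured by 25 tested members of a marker list. S100a8 encodes a subunit of calprotectin, which neutrophils carry and inflamed keratinocytes also make, and it measured 1618, 46.4 and 220.2 TPM in triple therapy tumors, against 13.7, 3.86 and 36.9 TPM in isotype tumors (4.20 ± 1.19, adjusted p = 0.316). S100a9, the other subunit, measured 1536, 49.8 and 216 TPM with triple therapy and 5.81, 4.77 and 40.1 TPM with isotype (4.45 ± 1.20, adjusted p = 0.313). Both followed the order of the keratins, and triple therapy replicate 2 lay just above isotype replicate 3.
Fpr1, a receptor for bacterial formyl peptides on neutrophils and monocytes, measured 30.2, 18.1 and 15.4 TPM in triple therapy tumors, against 1.75, 2.2 and 5.93 TPM in isotype tumors (2.44 ± 0.43, adjusted p = 0.104). Mmp8, the neutrophil collagenase, measured 22.9, 7.37 and 6.22 TPM with triple therapy and 0.46, 0.95 and 0.63 TPM with isotype (2.76 ± 0.50, adjusted p = 0.104). In both, replicates 2 and 3 were close to each other and above the isotype libraries. In this list 14 of 25 genes had an unadjusted p under 0.05 and were higher, 0 were lower, and 11 did not overlap between the groups. Its median log2 fold change was 1.43, and per library the median over the isotype mean was 2.30, 0.51 and 1.11 in triple therapy replicates 1, 2 and 3. The median was 0.93 without replicate 1.

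Acute phase and alarm transcripts included Saa3, an inducible serum amyloid A of macrophages and epithelia, with 1517, 287 and 269 TPM in triple therapy tumors, against 31.6, 7.58 and 117 TPM in isotype tumors (3.94 ± 0.91, adjusted p = 0.278). Its triple therapy libraries were all above the highest isotype library, replicate 3. Of 12 epidermal alarm genes tested, 6 were higher at an unadjusted p under 0.05 and 0 lower, with a median of 1.58. Il1f6 and Il1f8, which encode interleukin-36 alpha and beta of inflamed epidermis, were below the filter. Il1f6 measured 14.5, 0 and 1.34 TPM with triple therapy, and Il1f8 22.3, 0 and 1.69 TPM, and both were listed at 0 in all isotype libraries.

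Several genes of activated macrophages differed between the groups, with less spread among triple therapy libraries than the keratins, although 0 passed the test. Their ranges there were 0.32 log2 for Tnf, 0.52 for Nos2, 0.55 for Slc13a3, 0.84 for Irg1 and 1.5 for Hmox1. The median range over all genes was 0.46. Irg1, now named Acod1, makes itaconate in macrophages and measured 42.8, 23.5 and 31.4 TPM in triple therapy tumors, against 4.79, 4.59 and 6.59 TPM in isotype tumors. Every triple therapy library was well above every isotype library. The log2 fold change was 2.38 ± 0.37 (adjusted p = 0.0592). Tnf, the gene of tumor necrosis factor, measured 13.1, 10.3 and 10.7 TPM in triple therapy tumors, against 4.11, 4.54 and 5.22 TPM in isotype tumors (chromosome 17, 35199381 to 35202007). The 3 libraries of each group were close together and the groups did not overlap, at a log2 fold change of 1.14 ± 0.20 (adjusted p = 0.0913). Nos2, the inducible nitric oxide synthase, measured 30.8, 30.1 and 21.2 TPM with triple therapy and 5.42, 6.92 and 3.64 TPM with isotype (2.18 ± 0.44, adjusted p = 0.195). Slc13a3, a carrier of dicarboxylates that also transports itaconate, measured 72.5, 51.2 and 49.2 TPM with triple therapy and 6.94, 5.97 and 17.0 TPM with isotype (2.53 ± 0.43, adjusted p = 0.0913, chromosome 2, 165405028 to 165473230). Hmox1, which degrades heme, measured 1059, 374 and 405 TPM with triple therapy and 85.7, 116 and 158 TPM with isotype (2.22 ± 0.40, adjusted p = 0.104). All 3 separated the groups without overlap, and in Nos2 the keratin-rich replicate 1 and the keratin-poor replicate 2 stood at almost the same level.

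None of these inflammatory genes was called in the main fit, and whether they passed depended on the libraries included. Without triple therapy replicate 2, Irg1 (adjusted p = 0.0118), Hmox1 (adjusted p = 0.0186), Cxcl1 (adjusted p = 0.0253), Tnf (adjusted p = 0.0260), Mmp8 (adjusted p = 0.0260), Slc13a3 (adjusted p = 0.0289) and Fpr1 (adjusted p = 0.0324) passed the limma test. Without replicate 1 none of them passed, with log2 fold changes of 2.22 ± 0.39 for Cxcl1, 2.17 ± 0.40 for Irg1, 2.09 ± 0.51 for Nos2 and 1.04 ± 0.21 for Tnf. With triple therapy replicate 2 alone against isotype, a setting chosen after seeing the data, the log2 fold changes were 2.49 ± 0.50 for Cxcl1, 1.97 ± 0.53 for Irg1, 2.33 ± 0.66 for Nos2 and 1.01 ± 0.29 for Tnf, none of them past the test. With the basal keratinocyte level of each library as a covariate, the log2 fold change was 2.54 ± 0.54 for Cxcl1, 1.93 ± 0.58 for Irg1, 2.21 ± 0.72 for Nos2, 0.87 ± 0.31 for Tnf and 3.24 ± 0.46 for Krt6a, and 0 genes passed. In that setting Cxcl2 fell to 0.69 ± 1.12 and Cxcl3 to 0.95 ± 1.1. List medians fell to 0.25 for neutrophil, 0.31 for macrophage and monocyte and 0.12 for Toll-like receptor signalling genes. They fell to 0.14 for collagen and matrix and -0.02 for endothelial genes. Medians rose to 0.47 for inflammatory cytokines and feedback and 1.53 for interferon gamma response genes.

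**Figure D4:**
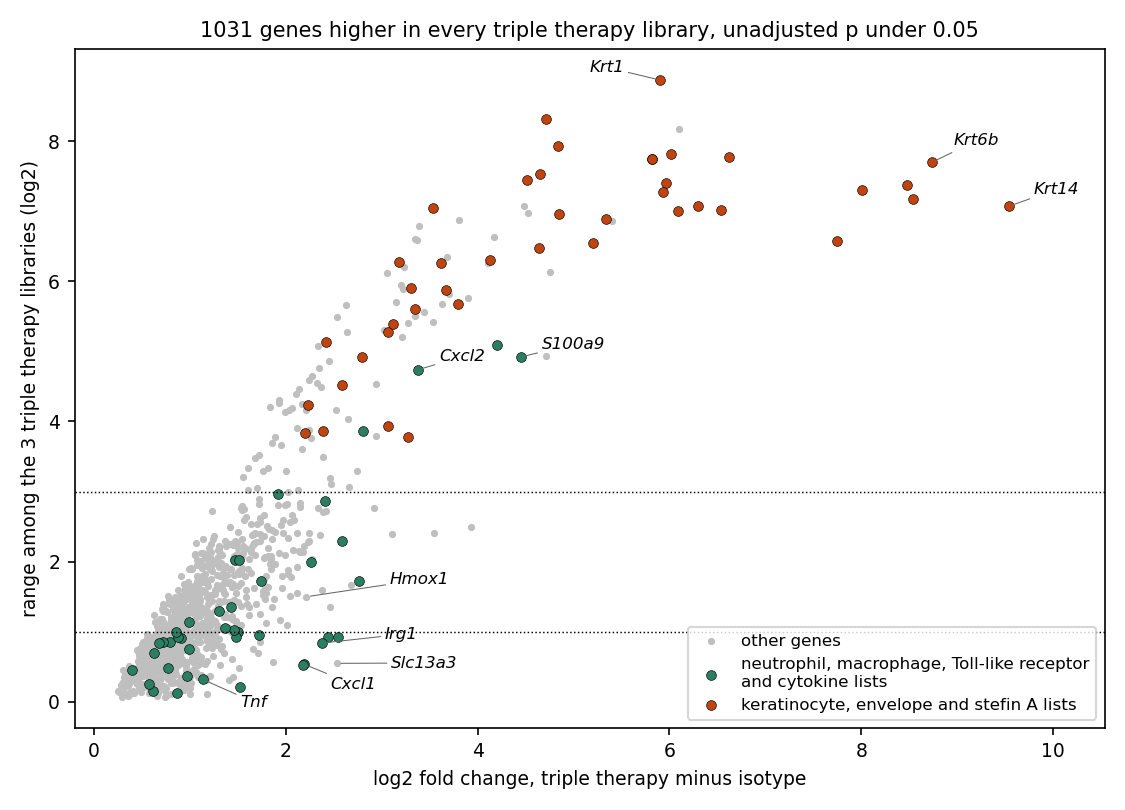
Log2 fold change of triple therapy minus isotype (horizontal) against the range of log2(TPM + 1) among the 3 triple therapy libraries (vertical), for the 1031 genes that were higher in every triple therapy library with an unadjusted p under 0.05. Krt14, Krt6b and Krt1 (among the keratinocyte, envelope and stefin A genes, orange) have ranges above 3. Cxcl1, Irg1, Tnf and Slc13a3 (among the points below the line at 1) combine fold changes of 1.14 to 2.53 with ranges of 0.32 to 0.84. The median range over all genes was 0.46.

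The width of the triple therapy group differed among genes. Of the 1031 genes higher in every triple therapy library with an unadjusted p under 0.05, 465 had a range of at most 1 log2 unit among the triple therapy libraries and 119 had a range over 3. The range was 7.17 for Krt6a, 7.37 for Krt16 and 8.87 for Krt1, against 0.54 for Cxcl1 and 0.84 for Irg1. Among genes that met these conditions, which select for separate groups, the range was 0.13 to 2.0 for 10 macrophage and monocyte genes, 0.48 to 1.35 for 7 Toll-like receptor signalling genes and 0.51 to 1.62 for 12 interferon gamma response genes. Other inflammatory lists reached wider ranges, at 0.21 to 5.09 for 11 neutrophil genes and 0.54 to 4.74 for 4 neutrophil attractant genes. For 9 genes of inflammatory cytokines and feedback it was 0.16 to 2.97. The median range over all genes was 0.46 in triple therapy and 0.50 in isotype tumors.

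The broad macrophage markers Cd68 and Emr1 had smaller log2 fold changes than Irg1, Nos2, Slc13a3 and Hmox1, which were chosen by small p. List medians ran the other way, at 0.71 for macrophage and monocyte genes and 0.40 for inflammatory cytokines and feedback. Cd68, a lysosomal protein of macrophages, measured 577, 306 and 333 TPM in triple therapy tumors, against 214, 198 and 208 TPM in isotype tumors (0.91 ± 0.25, adjusted p = 0.316). Emr1, which encodes the F4/80 antigen, measured 268, 158 and 185 TPM with triple therapy and 99.5, 93.7 and 106 TPM with isotype (0.99 ± 0.29, adjusted p = 0.32). Both separated the groups, with replicate 1 highest. Chi3l3, a chitinase-like protein of alternatively activated macrophages, measured 76.9, 39.8 and 44.8 TPM with triple therapy, against 8.81, 3.24 and 16.6 TPM with isotype (2.54 ± 0.50, adjusted p = 0.183). Marco, a scavenger receptor for bacteria, measured 8.9, 4.11 and 5.73 TPM with triple therapy and 0.92, 0.39 and 2.55 TPM with isotype (1.72 ± 0.48, adjusted p = 0.316). Arg1, which depletes arginine, measured 425, 154 and 106 TPM with triple therapy and 27.0, 21.7 and 98.3 TPM with isotype (2.27 ± 0.92, adjusted p = 0.355), with the lowest triple therapy library only just above isotype replicate 3. Of 24 macrophage and monocyte genes, 11 were higher at an unadjusted p under 0.05 and 0 lower, 10 did not overlap, and the median log2 fold change was 0.71 (0.44 without triple therapy replicate 1).

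Cytokines were uneven. Il1b, the gene of interleukin-1 beta, measured 154, 52.4 and 68.7 TPM in triple therapy tumors and 27.1, 28.7 and 82.7 TPM in isotype tumors, which overlapped (1.02 ± 0.60, adjusted p = 0.503). Icam1, an adhesion molecule induced by inflammation, measured 58.2, 27.6 and 43.5 TPM with triple therapy and 13.1, 11.7 and 23.7 TPM with isotype without overlap (1.36 ± 0.35, adjusted p = 0.301). Ccl3, a chemokine of macrophages, measured 67.8, 18.1 and 22.5 TPM with triple therapy and 7.64, 7.99 and 16.4 TPM with isotype (1.50 ± 0.60, adjusted p = 0.352). Of 26 genes of inflammatory cytokines and feedback, 9 were higher at an unadjusted p under 0.05 and 0 lower, and the median was 0.40. Among these 26, 1 reached the filter on low values only through the triple therapy libraries. The median stayed positive under both other scalings, at 0.27 (median of ratios) and 0.13 (quantile).

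The receptor for imiquimod was measured directly. Tlr7, which encodes Toll-like receptor 7, measured 28.8, 12.5 and 16.2 TPM in triple therapy tumors, against 10.3, 8.4 and 7.3 TPM in isotype tumors. All triple therapy libraries lay above the isotype libraries, with replicate 1 highest and replicate 2 close to isotype replicate 1, and the log2 fold change was 0.99 ± 0.37 (adjusted p = 0.34). It was 0.06 ± 0.50 with the basal keratinocyte level as a covariate. Irak3, a brake on Toll-like receptor signalling, measured 22.7, 8.31 and 12.3 TPM with triple therapy and 4.23, 3.38 and 5.51 TPM with isotype (1.43 ± 0.41, adjusted p = 0.317). Irf5, a factor downstream of these receptors, measured 73.1, 52.0 and 59.0 TPM with triple therapy and 29.8, 28.5 and 50.4 TPM with isotype (0.78 ± 0.27, adjusted p = 0.339). Neither overlapped between groups. Of 25 Toll-like receptor signalling genes, 11 were higher at an unadjusted p under 0.05 and 0 lower, with a median of 0.54.

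**Figure D5:**
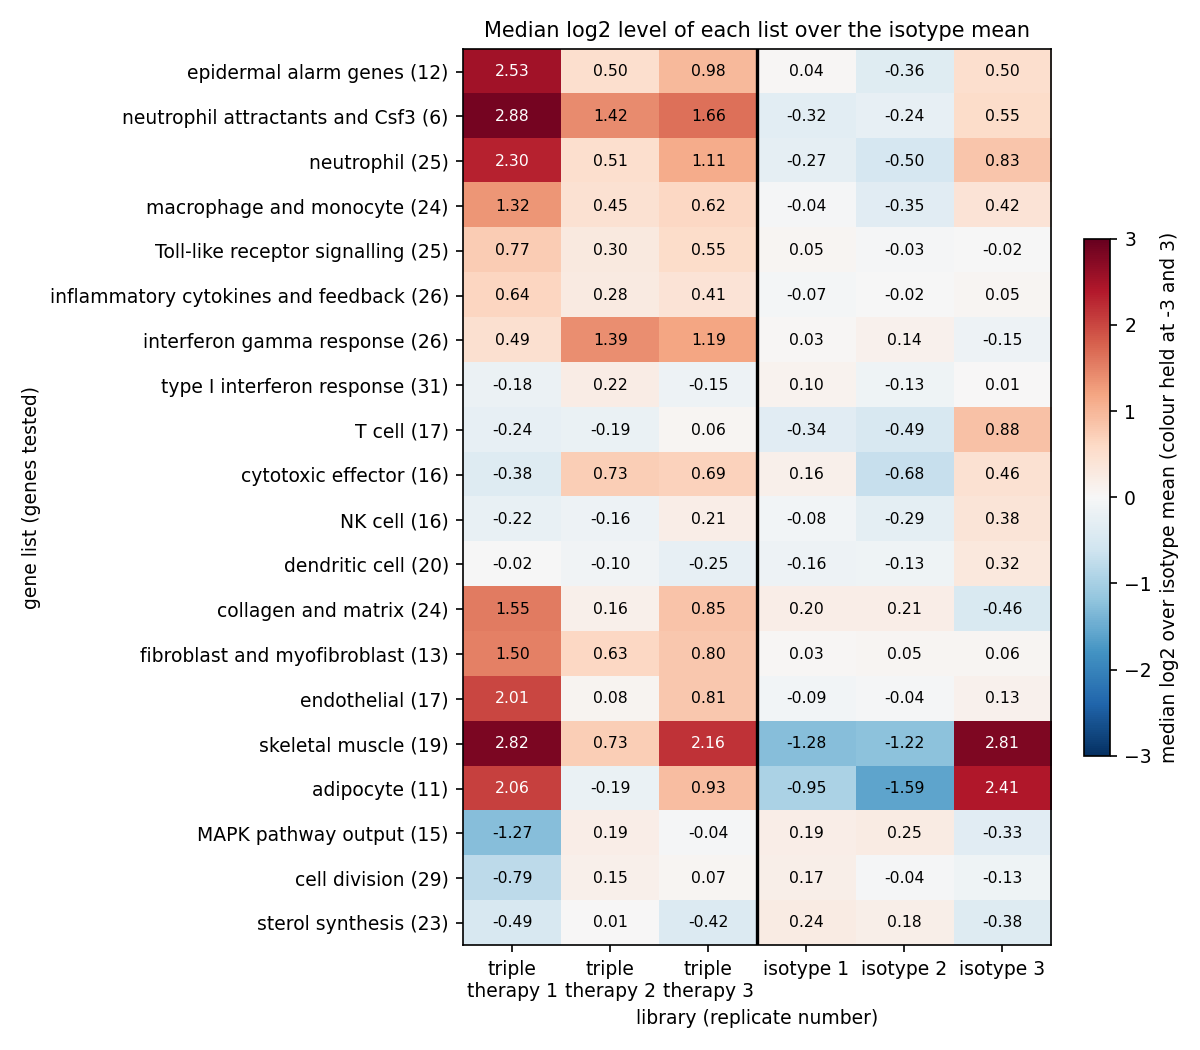
Median log2(TPM + 1) of the tested genes of 20 lists in each library minus the mean of the isotype libraries, with triple therapy libraries left of the isotype libraries and the colour held at 3 and -3. The neutrophil list is highest in triple therapy replicate 1 (2.30) and lowest in replicate 2 (0.51), the interferon gamma response list is lowest in replicate 1 (0.49) and highest in replicate 2 (1.39), and the muscle and adipocyte lists are high in isotype replicate 3.

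Interferon gamma response genes were higher in triple therapy tumors and lay lowest in the keratin-rich replicate 1, and 0 passed the test. Serpina3g, an interferon-induced inhibitor of proteases (chromosome 12, 104236245 to 104241939), measured 85.5, 104 and 128 TPM in triple therapy tumors, against 24.1, 22.3 and 40.6 TPM in isotype tumors (1.86 ± 0.40, adjusted p = 0.266). Irf1, an interferon-induced transcription factor, measured 142, 227 and 205 TPM with triple therapy and 90.8, 100.1 and 109.5 TPM with isotype (0.90 ± 0.27, adjusted p = 0.32). Cd274, which encodes PD-L1, measured 40.1, 67.9 and 55.2 TPM with triple therapy and 22.1, 24.1 and 16.6 TPM with isotype (1.32 ± 0.42, adjusted p = 0.323). In all 3 the lowest triple therapy value was that of replicate 1, and the groups did not overlap. Irf8, a factor of myeloid cells, was lowest in replicate 2 instead and measured 53.6, 37.4 and 50.6 TPM with triple therapy and 19.0, 20.2 and 33.9 TPM with isotype (0.96 ± 0.29, adjusted p = 0.32). All 26 genes of this list had positive log2 fold changes, 13 had an unadjusted p under 0.05, 16 did not overlap, and the median was 0.98, or 0.49, 1.39 and 1.19 by triple therapy replicate.

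The T cell-attracting chemokines of the same response were split by library. Cxcl9 measured 37.6, 184 and 160.2 TPM in triple therapy tumors and 56.6, 77.7 and 81.0 TPM in isotype tumors (0.54 ± 0.57, adjusted p = 0.714). Cxcl10 measured 94.1, 326 and 246 TPM with triple therapy and 152, 157 and 163 TPM with isotype (0.32 ± 0.57, adjusted p = 0.833, and -0.05 without triple therapy replicate 2). For both, replicates 2 and 3 were above and replicate 1 below every isotype library. Type I interferon response genes did not share the difference. Isg15, a ubiquitin-like protein induced by type I interferon, measured 82.5, 186 and 129 TPM with triple therapy and 198, 152 and 208 TPM with isotype (-0.55 ± 0.47, adjusted p = 0.649). Of 31 such genes, 1 was higher at an unadjusted p under 0.05 and 0 lower, the median was 0.01, and its sign turned under other scalings.

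Most T cell genes overlapped between the groups, and 1 of 17 did not. That gene was Il7r, the interleukin-7 receptor, which measured 16.6, 9.76 and 9.13 TPM in triple therapy tumors, against 7.67, 6 and 8.54 TPM in isotype tumors (0.58 ± 0.45, adjusted p = 0.613). Cd3e, which T cell receptors need for signalling, measured 6.42, 4.78 and 8.14 TPM in triple therapy tumors and 5.46, 5.51 and 14.9 TPM in isotype tumors (-0.26 ± 0.59, adjusted p = 0.869). Cd8a, the coreceptor of cytotoxic T cells, measured 6, 7.26 and 8.54 TPM with triple therapy and 6.89, 4.69 and 15.9 TPM with isotype (-0.15 ± 0.64, adjusted p = 0.936). Cd4 measured 12.4, 3.13 and 6.41 TPM with triple therapy and 2.68, 2.49 and 7.18 TPM with isotype (0.65 ± 0.52, adjusted p = 0.62). Isotype replicate 3, the library rich in muscle and adipocyte RNA, held the most Cd3e and Cd8a of all 6. Of 17 T cell genes 0 had an unadjusted p under 0.05, and the median of -0.20 was 0.24 without that library. Ifng, the gene of interferon gamma, measured 2.42, 7.71 and 7.66 TPM with triple therapy and 2.32, 1.54 and 5.41 TPM with isotype (0.75 ± 0.51, adjusted p = 0.566). Gzmb, the gene of granzyme B, measured 21.0, 65.2 and 61.2 TPM with triple therapy and 27.2, 14.3 and 38.0 TPM with isotype (0.81 ± 0.57, adjusted p = 0.575). Prf1, the gene of perforin, measured 5.56, 14.4 and 16.9 TPM with triple therapy and 9.61, 5.44 and 9.97 TPM with isotype (0.42 ± 0.54, adjusted p = 0.769). For all 3, triple therapy replicates 2 and 3 exceeded every isotype library and replicate 1 did not. Of 16 cytotoxic effector genes 0 had an unadjusted p under 0.05, with a median of 0.11 that was -0.18 with quantile normalization.

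Several genes of regulatory T cells and dendritic cells were lower in triple therapy tumors, again with 0 past the test, while other genes of both lists had positive log2 fold changes. Ccr7, the receptor that guides dendritic cells and naive T cells to lymph nodes, measured 2.21, 2.72 and 1.58 TPM in triple therapy tumors, against 5.29, 5.53 and 16.9 TPM in isotype tumors (-1.52 ± 0.50, adjusted p = 0.337). Cd83, a surface marker of mature dendritic cells, measured 4.71, 5.53 and 7.79 TPM with triple therapy and 10.5, 10.6 and 14.0 TPM with isotype (-0.87 ± 0.31, adjusted p = 0.339). Siglech, a marker of plasmacytoid dendritic cells, measured 0.11, 0 and 0.31 TPM with triple therapy and 0.47, 0.65 and 1.55 TPM with isotype (-0.70 ± 0.30, adjusted p = 0.373). None of the 3 overlapped between groups, and Siglech stood below 1 TPM in 5 of 6 libraries. Ccr8, a receptor of tumor regulatory T cells, measured 0, 0.41 and 0.22 TPM with triple therapy and 1.01, 2.31 and 2.15 TPM with isotype (-1.20 ± 0.44, adjusted p = 0.339). Ctla4, a checkpoint receptor, measured 0.54, 2.06 and 0.97 TPM with triple therapy and 2.71, 1.62 and 5.94 TPM with isotype, with overlap (-0.95 ± 0.44, adjusted p = 0.393). Foxp3, the factor that defines regulatory T cells, measured 1.15, 1.1 and 0.84 TPM with triple therapy and 0.7, 1.07 and 1.44 TPM with isotype (-0.02 ± 0.34, adjusted p = 0.987), and its sign turned in several settings. Of 20 dendritic cell genes 3 were lower at an unadjusted p under 0.05 and 0 higher, and of 9 regulatory T cell genes 2 were lower and 0 higher. The lists as a whole differed little. Log2 fold changes were negative for 11 and positive for 9 dendritic cell genes (median -0.12). They were negative for 6 and positive for 3 regulatory T cell genes (median -0.06). Pdcd1, the gene of PD-1, measured 2.83, 4.6 and 6.75 TPM with triple therapy and 6.84, 4.05 and 12.6 TPM with isotype (-0.56 ± 0.65, adjusted p = 0.739).

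Most antigen presentation genes overlapped as well, with 2 of 22 MHC class I genes and 1 of 11 MHC class II genes higher in triple therapy without overlap. Nlrc5, which activates MHC class I genes, measured 28.7, 37.4 and 31.0 TPM in triple therapy tumors, against 21.9, 24.0 and 12.2 TPM in isotype tumors (0.76 ± 0.35, adjusted p = 0.397). Tapbpl, which edits peptides on class I, measured 38.1, 64.6 and 52.7 TPM with triple therapy and 32.9, 29.2 and 32.7 TPM with isotype (0.67 ± 0.28, adjusted p = 0.364). Ciita, the activator of MHC class II genes, measured 8.33, 5.99 and 15.7 TPM with triple therapy and 2.98, 3.65 and 5.25 TPM with isotype (1.08 ± 0.51, adjusted p = 0.405). The chains themselves overlapped. B2m, the light chain of MHC class I, measured 4603, 8639 and 6589 TPM in triple therapy tumors and 8189.6, 8005 and 8348 TPM in isotype tumors (-0.35 ± 0.27, adjusted p = 0.613). Cd74, the invariant chain of MHC class II, measured 884, 1168 and 1675 TPM with triple therapy and 1088, 1002 and 3396 TPM with isotype (-0.37 ± 0.58, adjusted p = 0.812). The lowest B2m value was that of the keratin-rich replicate 1, and the highest Cd74 value that of isotype replicate 3.

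Several genes of connective tissue were higher in triple therapy tumors, and 0 passed the test. Postn, which encodes the matrix protein periostin, measured 2149, 355 and 942 TPM in triple therapy tumors, against 225, 241 and 219 TPM in isotype tumors (1.97 ± 0.55, adjusted p = 0.316). Col1a1, a chain of type I collagen, measured 8288, 1559.8 and 3387 TPM with triple therapy and 817, 894 and 722 TPM with isotype (2.12 ± 0.82, adjusted p = 0.347). Acta2, the actin of smooth muscle and myofibroblasts, measured 337, 80.6 and 204 TPM with triple therapy and 45.0, 49.3 and 59.5 TPM with isotype (1.78 ± 0.49, adjusted p = 0.316). The isotype libraries lay close together and below all triple therapy libraries in these 3 genes. Thy1, a surface protein of fibroblasts and T cells, measured 391, 196 and 286 TPM with triple therapy and 111, 117 and 155 TPM with isotype (1.14 ± 0.36, adjusted p = 0.323). Lrrc15, a marker of myofibroblasts in tumors, measured 206, 58.6 and 122 TPM with triple therapy and 33.3, 42.4 and 16.2 TPM with isotype (1.96 ± 0.65, adjusted p = 0.339). Of 13 fibroblast and myofibroblast genes 5 were higher and 1 lower at an unadjusted p under 0.05, with a median of 0.91. The lower one was S100a4, a calcium-binding protein of fibroblasts and other motile cells, at 875, 6844 and 5725 TPM with triple therapy and 8962, 6822 and 8512 TPM with isotype (-1.31 ± 0.55, adjusted p = 0.366). It was the most abundant gene of that list, whose summed TPM was 3429, 7883.5 and 7299.4 with triple therapy and 9701.4, 7567 and 9225.1 with isotype, lowest in triple therapy replicate 1. Of 24 collagen and matrix genes 7 were higher at an unadjusted p under 0.05 and 0 lower, with a median of 0.93 that was 1.55, 0.16 and 0.85 by triple therapy replicate and 0.52 without replicate 1. Without that replicate the log2 fold change of Postn was 1.34 ± 0.49 and that of Col1a1 1.51 ± 0.86.

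Proteases that remodel matrix were measured beside them. Mmp12, the macrophage elastase, measured 89.4, 39.0 and 27.4 TPM in triple therapy tumors, against 4.58, 9.65 and 5.54 TPM in isotype tumors (2.68 ± 0.71, adjusted p = 0.313). Mmp13, a collagenase, measured 98.0, 31.8 and 35.4 TPM with triple therapy and 7.82, 12.8 and 5.88 TPM with isotype (2.38 ± 0.66, adjusted p = 0.316). Triple therapy libraries lay above the isotype libraries in both, without overlap. Of 15 matrix metalloproteinase genes 4 were higher at an unadjusted p under 0.05 and 0 lower. Among 14 complement genes 3 were higher and 0 lower, including C2, a component of the classical pathway, at 68.6, 16.5 and 23.6 TPM with triple therapy and 5.87, 5.17 and 14.1 TPM with isotype (1.85 ± 0.60, adjusted p = 0.337). Cd55, which protects cells from complement, measured 38.7, 9.17 and 20.8 TPM with triple therapy and 4.55, 2.45 and 8.06 TPM with isotype (1.89 ± 0.68, adjusted p = 0.339). Cdh5, the cadherin of endothelial cells, measured 128, 23.4 and 43.5 TPM with triple therapy and 19.4, 23.7 and 18.4 TPM with isotype, with overlap (1.28 ± 0.58, adjusted p = 0.386). The endothelial list had a median of 0.99 over 17 genes, which was 2.01, 0.08 and 0.81 by triple therapy replicate and 0.46 without replicate 1.

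Muscle and fat genes varied within both groups. Acta1, the actin of skeletal muscle, measured 282, 68.7 and 169 TPM in triple therapy tumors and 5.91, 3.91 and 229 TPM in isotype tumors (2.91 ± 2.26, adjusted p = 0.613). The summed TPM of 20 muscle genes, 19 of them tested, was 1229, 281.4 and 740.7 with triple therapy and 60.5, 57.8 and 1054.9 with isotype, so the groups overlapped because of isotype replicate 3. The median of the muscle list was 1.96 and, without that library, 3.00. Lpl, the lipoprotein lipase of fat and muscle, measured 125, 21.6 and 48.4 TPM with triple therapy and 3.25, 3.6 and 27.3 TPM with isotype (2.66 ± 0.99, adjusted p = 0.339).

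On the TPM scale few genes were lower in triple therapy tumors, a balance that depended on scaling as described above. Several of the lower genes were abundant in the isotype grafts. Mgp, which encodes matrix Gla protein, an inhibitor of calcification, measured 356, 5249 and 3073 TPM in triple therapy tumors, against 10027, 8764 and 9699 TPM in isotype tumors (-2.40 ± 0.83, adjusted p = 0.339). Dmp1, a mineralized matrix protein, measured 1.12, 54.0 and 40.4 TPM with triple therapy and 204, 235 and 81.3 TPM with isotype (-3.23 ± 0.96, adjusted p = 0.32). Eif2s3y, a Y-linked translation factor, measured 0.29, 10.1 and 5.11 TPM with triple therapy and 13.8, 12.8 and 11.1 TPM with isotype (-1.61 ± 0.57, adjusted p = 0.339). In each of the 3 the keratin-rich replicate 1 was lowest, and no triple therapy library reached the isotype range. Without replicate 1 the log2 fold change was -1.24 ± 0.60 for Mgp and -1.73 ± 0.56 for Dmp1. With the basal keratinocyte level as a covariate, the log2 fold change was 0.08 ± 1.00 for Dmp1 and 0.44 ± 0.54 for Eif2s3y. Syt12 measured 2.45, 12.4 and 9 TPM with triple therapy and 21.9, 19.2 and 16.6 TPM with isotype (-1.38 ± 0.39, adjusted p = 0.316), and S100b, a calcium-binding protein of neural crest derivatives, 4.09, 11.5 and 6.07 TPM with triple therapy and 19.2, 24.6 and 15.5 TPM with isotype (-1.42 ± 0.54, adjusted p = 0.345). Both showed the same order, with replicate 1 lowest.

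Mcpt2 departed from that order. This chymase of mucosal mast cells (chromosome 14, 56042041 to 56044642) measured 5.56, 2.49 and 11.0 TPM in triple therapy tumors, against 34.2, 23.1 and 46.8 TPM in isotype tumors. The keratin-poor replicate 2 was lowest, and no triple therapy library reached the isotype range. Its log2 fold change was -2.40 ± 0.53 (adjusted p = 0.27), and -2.48 ± 0.87 with the basal keratinocyte level as a covariate. Mcpt1, its neighbour in the mast cell chymase cluster, measured 1.05, 0.47 and 2.4 TPM with triple therapy and 4.59, 3.4 and 9.07 TPM with isotype (-1.53 ± 0.66, adjusted p = 0.371). Other mast cell genes did not share this direction in the main fit. All 8 genes of the Langerhans and mast cell list had positive log2 fold changes there, with a median of 0.53. Of these, 1 reached the filter on low values only through the triple therapy libraries. Fcer1a, a chain of the IgE receptor, measured 12.3, 7.03 and 10.8 TPM with triple therapy, against 4.83, 3.93 and 5.32 TPM with isotype, without overlap (0.93 ± 0.53, adjusted p = 0.484). Cpa3, a carboxypeptidase of mast cells, measured 69.6, 32.0 and 64.2 TPM with triple therapy and 36.3, 19.5 and 45.1 TPM with isotype, with overlap (0.70 ± 0.45, adjusted p = 0.537). With the basal keratinocyte level as a covariate these signs turned, to -0.25 ± 0.75 for Fcer1a and -0.30 ± 0.63 for Cpa3. The list median was -0.38 in that setting. Igfbp4, which binds insulin-like growth factors, measured 347, 511 and 383 TPM with triple therapy and 729, 753 and 889 TPM with isotype (-0.95 ± 0.22, adjusted p = 0.27), and passed without triple therapy replicate 2 (adjusted p = 0.0362). For Igfbp4 the range was 0.56 log2 in triple therapy and 0.29 in isotype tumors, and the groups did not overlap.

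Growth and stress genes were uneven, and 0 passed the test. Mki67, a marker of dividing cells, measured 34.8, 49.7 and 50.6 TPM in triple therapy tumors and 45.2, 52.6 and 26.4 TPM in isotype tumors (0.15 ± 0.36, adjusted p = 0.872), and of 29 cell division genes 0 had an unadjusted p under 0.05. Etv4, a target of MAP kinase signalling, measured 18.8, 79.3 and 62.2 TPM with triple therapy and 92.2, 89.6 and 78.4 TPM with isotype (-0.91 ± 0.40, adjusted p = 0.375). The 15 MAPK output genes had a median of -0.41, with -1.27 in triple therapy replicate 1, 0.19 in replicate 2 and -0.04 in replicate 3, and it was 0.03 without replicate 1. Fas, a death receptor and p53 target, measured 18.5, 19.7 and 16.7 TPM with triple therapy and 11.7, 9.56 and 12.5 TPM with isotype (0.66 ± 0.19, adjusted p = 0.32). Its triple therapy libraries were close together and above all isotype libraries. Of 20 p53 target genes 8 were higher at an unadjusted p under 0.05 and 0 lower, with a median of 0.36. Hspa1a, an inducible heat shock protein, measured 24.3, 10.9 and 11 TPM with triple therapy and 4.92, 9.56 and 3.96 TPM with isotype (1.18 ± 0.38, adjusted p = 0.335). Hspb1, a small heat shock protein, measured 222, 14.3 and 31.9 TPM with triple therapy and 5.02, 5.41 and 19.8 TPM with isotype, with overlap (2.38 ± 0.88, adjusted p = 0.339), and of 14 heat shock genes 2 were higher and 0 lower at an unadjusted p under 0.05, with a median of -0.11. Wnt5a, a secreted Wnt ligand, measured 27.9, 16.2 and 24.0 TPM with triple therapy and 7.38, 9.95 and 3.26 TPM with isotype (1.66 ± 0.52, adjusted p = 0.323). Hspa1a and Wnt5a were above the isotype range in every triple therapy library. Idi1, an enzyme of sterol synthesis, measured 55.5, 95.9 and 62.8 TPM with triple therapy and 126, 109 and 83.0 TPM with isotype (-0.58 ± 0.23, adjusted p = 0.35), and of 23 sterol synthesis genes 5 were lower and 0 higher at an unadjusted p under 0.05.

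The anti-PD-1 group of the same line received an antibody without laser or imiquimod as far as the labels say, and its comparison with triple therapy used the same triple therapy libraries. By limma 0 of 13592 genes passed an adjusted p of 0.05, with the smallest at 0.0552, and at an unadjusted p under 0.05 1131 were higher (8.32%) and 280 lower (2.06%) with triple therapy. The wound keratin Krt16 measured 5730.0, 33.7 and 389 TPM with triple therapy, against 0.19, 0.27 and 0 TPM with anti-PD-1 (8.54 ± 1.21, adjusted p = 0.0552). Irg1 measured 42.8, 23.5 and 31.4 TPM with triple therapy, 8.83, 11.1 and 11.9 TPM with anti-PD-1 and 4.79, 4.59 and 6.59 TPM with isotype. Nos2 measured 30.8, 30.1 and 21.2 TPM with triple therapy, 11.6, 10.2 and 18.1 TPM with anti-PD-1 and 5.42, 6.92 and 3.64 TPM with isotype. For both genes every anti-PD-1 library lay between the other groups. The comparison of anti-PD-1 with isotype shares its isotype libraries with the comparison of triple therapy, so their agreement is no separate evidence.

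For interferon gamma response genes the groups were closer. The list's median log2 fold change against isotype was 0.98 for triple therapy and 0.75 for anti-PD-1, and 0.25 for triple therapy over anti-PD-1, where 2 of 26 genes were higher at an unadjusted p under 0.05. Cd274 measured 40.1, 67.9 and 55.2 TPM with triple therapy, 36.3, 31.9 and 57.5 TPM with anti-PD-1 and 22.1, 24.1 and 16.6 TPM with isotype. Irf1 measured 142, 227 and 205 TPM with triple therapy, 118, 179 and 178 TPM with anti-PD-1 and 90.8, 100.1 and 109.5 TPM with isotype. Triple therapy and anti-PD-1 overlapped in both genes. Neutrophil attractants, in contrast, had a median of 1.87 for triple therapy over anti-PD-1, with 4 of 6 higher at an unadjusted p under 0.05, and Hmox1 measured 1059, 374 and 405 TPM with triple therapy, 162, 113 and 184 TPM with anti-PD-1 and 85.7, 116 and 158 TPM with isotype, with the triple therapy libraries above all others (1.85 ± 0.40 over anti-PD-1, adjusted p = 0.33).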

How the data were processed

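Bulk tumor RNA was measured in 15 libraries, 3 in each of 5 groups. The deposited table gives TPM values per gene symbol, and the submitters' processing notes name Bowtie2, RSEM and the builds mm10 and GRCm38. Versions and read depth are not given in the sources used here. Each column sums to 1000000, so values are relative, and a value of 0 may be a failed estimate. The authors' TPM values were analysed as log2(TPM + 1) for 13592 genes with at least 1 TPM in at least 3 of 15 libraries. limma 3.58.1 in R 4.3.3 fitted 1 coefficient per group (10 residual degrees of freedom, eBayes with trend and robust), with two-sided tests and Benjamini-Hochberg adjustment. The fit was tested on simulated data with the same spread in every group. That test does not cover the unequal spread of the called keratins. Positions come from GENCODE M21 (GRCm38) for 12767 of the tested genes. Of the symbols, 27 look like dates and 2 occur more than once. All 15 columns were used.

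Members, the 47 gene lists and the naming rule were chosen with earlier results of these data known. Named were all called genes, the 15 highest and 15 lowest fold changes and the 15 smallest p in each direction among genes with an unadjusted p under 0.05, separate groups and a mean of at least 5 TPM in the higher group, in each list up to 4 members by p, and fixed marker genes. The text shows part of these. Lists are described by counts and medians only. Alternatives changed the pseudocount, filter, scaling, libraries in the fit, replicate block, library weights, covariates and libraries left out.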

Additional observations from a re-analysis of the deposited data

Results flagged for a closer look

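Keratin transcripts also stood out in a library that the comparison of triple therapy with isotype did not use. In tumors of the UV2 line given anti-PD-1, replicate 3 had a summed TPM of 412.1 over 52 keratin genes, against 8.3 to 21.2 TPM in the 3 UV2 isotype libraries. In it Krt10 measured 114.6 TPM, Krt14 69.46 TPM and Lor 26.48 TPM, beside 3.32 TPM for Krt6a and 1.03 TPM for Krt16. The ratio of Krt6a to Krt14 was 0.0478 there, against 0.521, 0.479 and 0.497 in the triple therapy replicates, and the ratio of Krt10 to Krt14 was 1.65, against 0.0578, 0.0481 and 0.0265. With 1 such library the difference in ratios has no replicate check.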

How the results depend on the processing

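Against the 3 calls of triple therapy over isotype, 0 genes passed with no filter, median-of-ratios scaling, quantile normalization, rescaling without the epidermal lists, the compared groups alone, the replicate block or either covariate (basal keratinocyte or skeletal muscle level). A pseudocount of 0.1 gave 5 (the 3 keratins, Sprr1b and Irg1), triple therapy replicate 2 alone 5 (the 3 keratins, Sprr1b and Gjb2), library weights 3312, and leaving out 1 library 0 to 257. The count at an unadjusted p under 0.05, 1714, was 4895 with library weights, 197 and 905 with the keratinocyte and muscle covariates, 161 with replicate 2 alone and 550 to 2848 with 1 library left out. For triple therapy over anti-PD-1, 0 calls became 4 with a pseudocount of 0.1, 2273 with library weights and 0 to 195 with 1 library left out. Library weights were estimated gene by gene, since the default estimate did not converge. The replicate numbers did not pair the libraries: same-numbered deviations correlated at -0.255, 0.206 and -0.088.

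The following log2 fold changes of triple therapy over isotype had the opposite sign or stood at 0. With library weights Cd3e measured 0.37, Cd8a 0.29, Foxp3 0.06, Pdcd1 0, Cd74 0.5 and Mitf -0.01. With the keratinocyte covariate Krt1 measured -1.56, Krt10 -2.67, Krtdap -0.02, Lor -2.77, Stfa3 -0.03, Calm4 -1.26, Egfr -0.08, Mmp9 -0.37, S100a4 0.64, Fcer1a -0.25, Cpa3 -0.3, Hspb1 -0.4, Cd8a 0.4, Cd4 -0.37, Pdcd1 0.18, Cd74 0.13, B2m 0.09, Eif2s3y 0.44, Spp1 0.29, Dmp1 0.08 and Etv4 0.55. With the muscle covariate Acta1 measured -0.1. With 1 library left out in turn, the range was -0.05 to 0.85 for Cxcl10 (lowest without triple therapy replicate 2), and, with the opposite sign without isotype replicate 3, -0.48 to 0.17 for Cd3e, -0.49 to 0.29 for Cd8a, -0.15 to 0.11 for Foxp3, -0.68 to 0.2 for Cd74 and -0.13 to 0.35 for Mki67. Foxp3 was also positive without triple therapy replicate 3 (0.05). With triple therapy replicate 2 alone Lor measured -0.07, Isg15 0.01, Cd4 -0.19, Foxp3 0.04 and B2m 0.08. The causes were not tested. Read depth is unknown, so it cannot be said which low genes lie within counting error.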

Other observations

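Several surface and secreted proteins outside the genes described above followed the keratins. Ly6d, a surface protein of squamous epithelium and early B cells, measured 873, 8.31 and 79.4 TPM in triple therapy tumors, against 0.71, 0.4 and 4.42 TPM in isotype tumors (log2 fold change 5.21 ± 1.36, adjusted p = 0.313). Serpinb2, an inhibitor of plasminogen activators made by keratinocytes and macrophages, measured 54.1, 1.42 and 4.69 TPM with triple therapy and 0, 0 and 1.68 TPM with isotype (2.72 ± 0.86, adjusted p = 0.323). Egfr, the epidermal growth factor receptor, measured 36.3, 4.57 and 11.3 TPM with triple therapy and 3.71, 4.45 and 3.01 TPM with isotype (1.54 ± 0.59, adjusted p = 0.347). All 3 were highest in replicate 1 and lowest in replicate 2, and for Serpinb2 replicate 2 lay below isotype replicate 3. Mmp9, a gelatinase of neutrophils and macrophages, had the same order, at 253, 13.9 and 73.9 TPM with triple therapy and 7.85, 6.71 and 24.7 TPM with isotype (2.45 ± 1.04, adjusted p = 0.366), so that replicate 2 lay below isotype replicate 3.

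Other myeloid and stress transcripts did not follow it. Trem3, a receptor of macrophages and neutrophils in the mouse, measured 5.89, 2.99 and 2.48 TPM in triple therapy tumors, against 0.22, 0.26 and 1.73 TPM in isotype tumors (log2 fold change 1.50 ± 0.42, adjusted p = 0.316). Atf3, a stress-induced transcription factor, measured 41.9, 32.1 and 28.0 TPM with triple therapy and 13, 27.3 and 12.7 TPM with isotype (0.98 ± 0.36, adjusted p = 0.339), with replicate 3 just above isotype replicate 2. Ccl2, a chemokine that draws monocytes, was highest in the keratin-poor replicate 2 and overlapped with isotype in replicate 1, at 195, 515 and 370.1 TPM with triple therapy and 211, 142 and 245 TPM with isotype (0.78 ± 0.43, adjusted p = 0.469). None of these genes passed the limma test.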
